A study of Homo sapiens with 12 samples.

Results

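The genes described here are the cyclins, cyclin-dependent kinases (CDKs) and the phosphatase that drive a cell from G1 into S phase. They are the D-type cyclins CCND1, CCND2 and CCND3, their kinases CDK4 and CDK6, the E-type cyclins CCNE1 and CCNE2, cyclin A2 (CCNA2), CDK2 and the phosphatase CDC25A. These 10 genes were matched by name out of 34227 genes listed for at least 1 of the cell lines. All 10 were listed in both lines. Genes with a mean normalized count of at least 10 were tested, which took 9 of the 10 genes among 15902 tested in SCC15 cells and all 10 among 16539 tested in SCC25 cells.

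Transcripts were counted by RNA sequencing in 2 established lines of human oral squamous cell carcinoma, SCC15 and SCC25, both labelled wild type. Each line was kept for 24 h with ACGs, the label for annonaceous acetogenins, which the study's methods give as squamocin at 10 µg/mL, or with the solvent DMSO. There were 3 libraries in each of the 4 groups, 12 in all, and nothing in the labels says whether the 3 came from separate cultures, so the p-values measure the spread between these libraries, which may be technical. The comparison asks which transcripts squamocin changed in each line, and the difference between the lines asks which of those responses were unequal.

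D-type cyclins bind CDK4 or CDK6 and phosphorylate the retinoblastoma protein, which releases the E2F transcription factors. E2F then drives the genes for E-type cyclins, cyclin A2, CDC25A and the replication machinery, and CDK2 bound to cyclin E and later to cyclin A carries the cell into and through S phase. In squamous carcinoma of the head and neck this step is often deregulated, commonly by gain of CCND1 or loss of the CDK inhibitor CDKN2A.

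The libraries held 16665563 to 22748845 reads on genes. The values are normalized counts, which are reads divided by a size factor that the authors set for each library within each cell line. Levels are therefore not compared between the lines. After that scaling the ACGs libraries summed to more than the DMSO libraries, 2.05e+07 to 2.46e+07 against about 1.55e+07 in SCC15 and 2.09e+07 to 2.13e+07 against 1.82e+07 to 1.83e+07 in SCC25. Scaling all libraries of a line to equal totals moved the median log2 fold change of all genes from 0.012 to -0.48 in SCC15 and from -0.015 to -0.22 in SCC25, and for the 10 genes the value is given wherever this turned a direction or a call. ACGs replicate 3 of SCC15 stood apart: the chi-square of its reads per degree of freedom was 67.9 and 60.1 against the other ACGs libraries, where other pairs of replicates gave 1.73 to 10.7. Of 8 squamous markers, 8 had a mean of at least 10 in SCC25 while in SCC15 7 did with DMSO, where KRT5 was below it, and 6 with ACGs, where KRT5 and EPCAM were. Of 10 markers of blood, endothelial and stromal cells, 4 reached that mean in SCC15 and 5 or 6 in SCC25. Their summed level was 458 to 491 in DMSO and 290 to 315 in ACGs libraries of SCC15, and 867 to 962 and 1096 to 1261 in SCC25. In SCC25 the summed rise came from COL1A1, a collagen gene of stromal cells (mean 576 with DMSO and 938 with ACGs), while the endothelial marker PECAM1 went from 75.3 to 2.38. Of the blood-cell markers, PTPRC had no read in SCC25, but CD3E had means of 22.8 with DMSO and 18.5 with ACGs there. In SCC15 the means of CD3E were 17.65 and 10.3, and those of PTPRC 3.05 and 0.77. The part of these markers in the results was not tested. In bulk RNA, fewer cells in a cycle phase and less RNA per cell cannot be told apart.

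In SCC15 cells, CDC25A and CCNE2 were the genes that squamocin lowered most, 2.79-fold and 3.78-fold, CCND1 was 1.38-fold lower and CCNA2 was 1.26-fold higher. In SCC25 cells the same 3 genes were lower, CDC25A 2.40-fold, CCNE2 1.35-fold and CCND1 1.12-fold. There CDK4 was 1.96-fold lower, and CCND2, CCNA2, CDK6 and CDK2 were higher, CCND2 by 3.67-fold. The calls of CCNE2 in SCC25 and of CCNA2 in SCC15 each held in 12 of 16 alternative analyses, as described below. All fold changes here are on the log2(normalized count + 1) scale and come from a limma fit over all tested genes of a line, in which p-values were adjusted by Benjamini-Hochberg and called under 0.05. In SCC15, 1 of the 9 genes was higher, 3 were lower and 5 did not pass, where 30.9% of all genes tested were called higher and 30% lower. In SCC25, 4 of the 10 were higher, 4 were lower and 2 did not pass, where 38.3% of all genes were called higher and 38.5% lower. Without ACGs replicate 3, 2 of the 9 were higher in SCC15 (CCNA2 and CDK4) and 5 lower (CDC25A, CCNE2, CCND1, CDK2 and CCNE1), where 38.0% of all genes were called higher and 37.6% lower. With 4 of 9 called against 61% of all genes in SCC15, and 8 of 10 against 76.8% in SCC25, the share of the 10 genes called was below the background in SCC15 and near it in SCC25. In SCC15 the called genes were near the 75.7% of all genes called when ACGs replicate 3 was left out. With equal library totals more of the 9 genes were called there too, beside 65.3% of all genes. Whether the share of so few genes differed from the background was not tested. The median log2 fold change of the genes was -0.18 in SCC15 and 0.017 in SCC25, beside 0.012 and -0.015 over all genes.

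**Figure D1:**
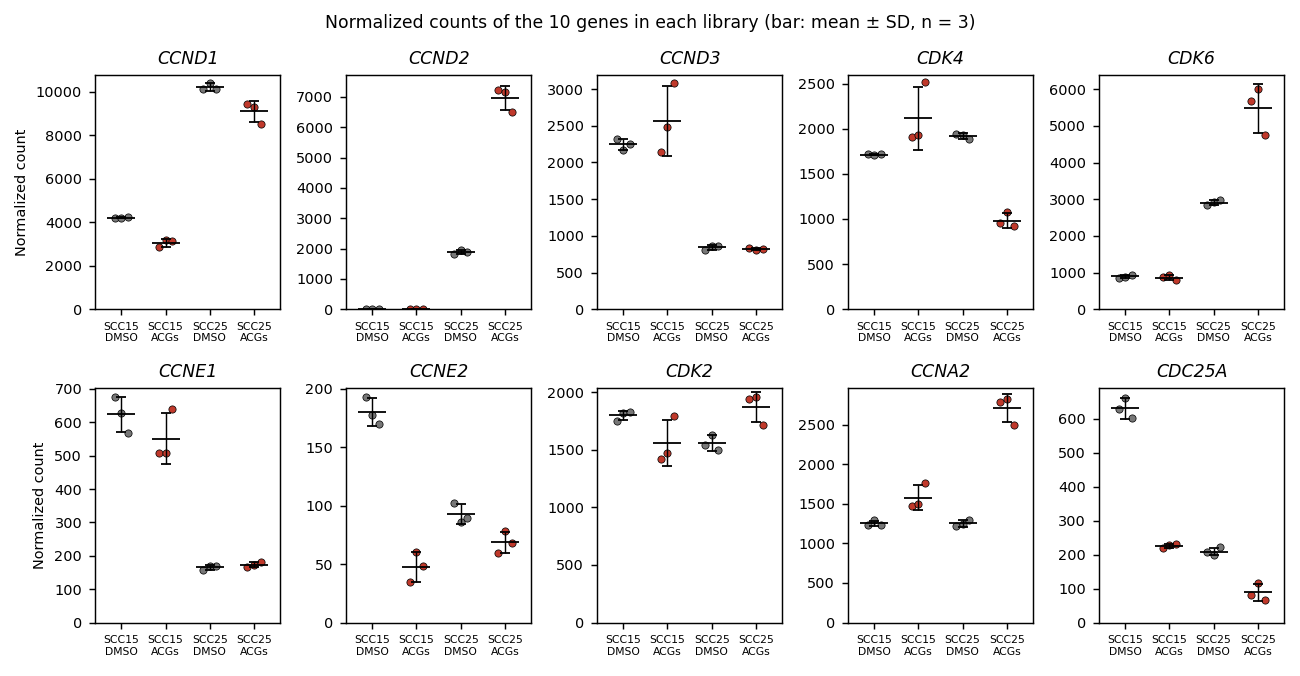
Normalized count (vertical axes, from 0) of each of the 10 genes in the 12 libraries, grouped by cell line and treatment; points are libraries and bars the mean ± SD of 3. CDC25A, CCNE2 and CCND1 were lower in each ACGs library than in each DMSO library of the same line, while CCND2 was at most 1.58 in SCC15 and 6505 to 7227 in ACGs libraries of SCC25. The axes of the 2 lines come from tables scaled separately.

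CCND1, the D-type cyclin most often amplified in these cancers (chromosome 11: 69641087 to 69654474, plus strand, GRCh38), was at 2856, 3175 and 3142 normalized counts in the ACGs libraries of SCC15 and at 4207, 4199 and 4234 in the DMSO libraries. All 3 ACGs libraries were below all 3 DMSO libraries, and CCND1 fell by 0.46 on the log2 scale (SE 0.082, adjusted p = 0.00224, limma). In SCC25 it was at 9444, 9318 and 8537 with ACGs and at 10114, 10416 and 10138 with DMSO. The groups were again apart, with a smaller change of -0.17 (SE 0.044, adjusted p = 0.00351). The response was lower in SCC15 by a log2 difference of -0.29 (SE 0.096, adjusted p = 0.0201), a call that was lost without ACGs replicate 1 of SCC25 (adjusted p = 0.0545). CCND1 overlaps 1399 bases of LTO1 on the opposite strand, and no source used here says that the counting used strand, so reads in that stretch cannot be assigned with certainty. The means of LTO1 with DMSO and with ACGs were 516 and 313 in SCC15, and 647 and 530 in SCC25. They were thus lower with ACGs in each line, as those of CCND1 were, and the part of LTO1 in the CCND1 counts was not tested.

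CCND2 (chromosome 12: 4273772 to 4305350, plus strand), a D-type cyclin that replaces CCND1 in some cell types, was close to absent in SCC15. No library of that line held more than 2 reads of it, under the floor of 3 reads that a count of 0 allows, which was worth 2.37 to 3.73 normalized counts, so no fold was computed and the gene was not tested there. In SCC25 it was at 7227, 7172 and 6505 with ACGs and at 1822, 1967 and 1894 with DMSO. Every ACGs library was above every DMSO library, and the rise of 1.88 (SE 0.050, adjusted p = 7.12e-12) was the largest among the 10 genes in that line. The overlapping antisense transcript CCND2-AS1 was at a mean of 12.1 with DMSO and 24.6 with ACGs. CCND3 (chromosome 6: 41934933 to 42050357, minus strand), the third D-type cyclin, was at 2139, 2485 and 3084 with ACGs and 2319, 2165 and 2254 with DMSO in SCC15. In SCC25 it was at 840, 811 and 818 with ACGs and 804, 862 and 868 with DMSO. The groups overlapped in both lines, and neither difference passed the test, at 0.18 (SE 0.14, adjusted p = 0.283) in SCC15 and -0.036 (SE 0.057, adjusted p = 0.572) in SCC25. With equal library totals CCND3 was lower in both lines, at -0.32 (adjusted p = 0.0188) in SCC15, where the sign turned, and -0.24 (adjusted p = 0.00170) in SCC25. Its responses in the lines differed by 0.21 (SE 0.15, adjusted p = 0.246), which passed the test without ACGs replicate 1 of SCC15 (0.34, adjusted p = 0.0316).

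The make-up of the D-type cyclin pool was computed within each library from normalized counts per kb of exon, a ratio that no library scaling changes. Lengths were unions of all GENCODE exons, 4761 bases for CCND1, 7988 for CCND2 and 5761 for CCND3. The shares depend on these lengths, and which transcripts the cells used was not tested. In SCC25 cells CCND1 made up 84.8% ± 0.36 (SD, n = 3) of the pool with DMSO and 65.3% ± 0.081 with ACGs, while CCND2 went from 9.37% ± 0.19 to 29.8% ± 0.18 and CCND3 from 5.79% ± 0.20 to 4.89% ± 0.24. In SCC15 cells CCND1 made up 69.4% ± 0.70 with DMSO and 59.2% ± 3.53 with ACGs, and CCND3 made up almost all of the remainder, 30.6% ± 0.71 and 40.8% ± 3.52. The share of CCND1 was lower in each ACGs library than in each DMSO library of both lines. It fell by 10.2 percentage points in SCC15 and fell by 19.5 in SCC25. The two-sided exact permutation test gave p = 0.1 in each line, the smallest that 3 against 3 libraries allow. The summed level of the pool, which does depend on the scaling, was 1275 ± 14.9 per kb with DMSO and 1088 ± 112 with ACGs in SCC15, and 2531 ± 47.4 and 2927 ± 154 in SCC25.

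**Figure D2:**
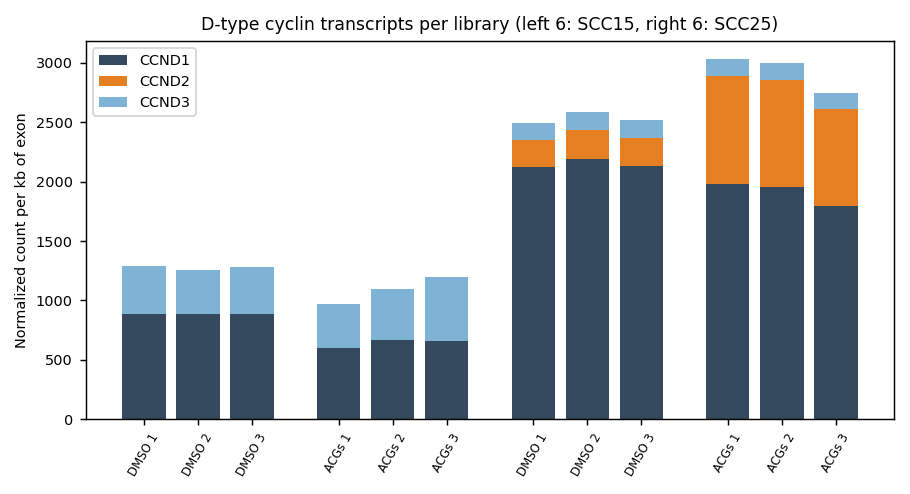
Level of the 3 D-type cyclins in each of the 12 libraries, stacked, in normalized counts per kb of exon (vertical axis, from 0). The CCND2 segment is invisible in the 6 SCC15 libraries and makes up 9.37% of the mean DMSO and 29.8% of the mean ACGs pool in SCC25.

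CDK4 and CDK6, the interchangeable kinases of the D-type cyclins, responded in opposite directions in SCC25 cells. CDK4 (chromosome 12: 57747727 to 57756013, minus strand) was at 951, 1072 and 923 with ACGs and at 1942, 1928 and 1885 with DMSO in that line, and CDK6 (chromosome 7: 92604921 to 92836594, minus strand) at 5681, 6005 and 4739 and at 2844, 2914 and 2968. Neither gene's groups overlapped. CDK4 fell by 0.97 (SE 0.060, adjusted p = 1.18e-08) and CDK6 rose by 0.91 (SE 0.071, adjusted p = 1.16e-07). In SCC15 CDK4 was at 1903, 1929 and 2520 with ACGs and 1717, 1706 and 1718 with DMSO, and CDK6 at 879, 926 and 790 and at 862, 882 and 945. CDK4 was higher in all 3 ACGs libraries, yet the difference of 0.29 (SE 0.12, adjusted p = 0.0681) did not pass. It passed without ACGs replicate 3 (0.16, adjusted p = 0.00416) or replicate 1 (0.36, adjusted p = 0.0490) of that line, and turned to -0.21 with equal library totals (adjusted p = 0.0510). CDK6 overlapped between the SCC15 groups, with a difference of -0.053 (SE 0.094, adjusted p = 0.642) that was -0.55 with equal totals (adjusted p = 0.00965). The lines differed in both responses: CDK4 by 1.26 (SE 0.14, adjusted p = 1.13e-05), higher in SCC15, and CDK6 by -0.96 (SE 0.13, adjusted p = 5.04e-05), lower in SCC15.

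The ratio of CDK6 to CDK4 was taken within each library after adding 1 to both normalized counts, so that scaling enters only through that 1. Its log2 value was 2.47 ± 0.11 (SD, n = 3) with ACGs and 0.60 ± 0.053 with DMSO in SCC25, a 3.66-fold difference, with every ACGs library above every DMSO library. In SCC15 it was -1.28 ± 0.34 with ACGs and -0.94 ± 0.068 with DMSO. All 3 ACGs libraries of SCC15 were below the DMSO libraries, but the difference of -0.35 rested in large part on ACGs replicate 3 and was -0.15 without it. The exact permutation test gave p = 0.1 in each line, the smallest possible. TSPAN31, which overlaps 2485 bases of CDK4 on the opposite strand, was at a mean of 659 with DMSO and 437 with ACGs in SCC25, and at 291 and 388 in SCC15, so its mean lay on the same side as that of CDK4 in each line. MARCH9, listed as 9-Mar, overlaps another 916 bases on that strand. Its means were 330 with DMSO and 243 with ACGs in SCC25, and 146 and 114 in SCC15, the side opposite to CDK4 in SCC15.

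RefSeq promoters (GRCh38.p14, 250 bases before to 50 after the start) were listed for 6 of the 10 genes, 9 promoters in all. CCND1, CCND2, CCNE2 and CDK2 had no entry. Both strands were searched for the E2F strings TTTCGCGC, TTTGGCGC and TTTCCCGC, for the E-box CACGTG bound by MYC and related factors, and for TGATGCAA, a string of the ATF4 element. The promoter of CDK4, shown because its transcript fell in SCC25, held 3 E-boxes, beginning at positions -216, -196 and -101 from the start, where 7.26% of 35116 promoters held at least 1 and 0.0940% at least 3. CDK6 held 1 E-box, 30 bases after its start. The 250 bases upstream of CDK4 (chr12:57752311-57752560, minus strand), with each CACGTG in capitals, read 5′ to 3′:
CDK4: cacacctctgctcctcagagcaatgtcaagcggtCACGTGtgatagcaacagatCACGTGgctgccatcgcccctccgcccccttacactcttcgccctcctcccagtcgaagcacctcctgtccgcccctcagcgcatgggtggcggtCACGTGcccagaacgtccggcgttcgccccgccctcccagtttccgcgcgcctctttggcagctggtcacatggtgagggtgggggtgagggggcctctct

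Of the E-type cyclins, which activate CDK2 at the start of S phase, CCNE2 was called lower in both lines and CCNE1 in neither. CCNE2, on chromosome 8, was at 34.8, 60.4 and 48.5 normalized counts with ACGs and at 193, 177 and 169 with DMSO in SCC15, from 30 to 53 and 194 to 226 reads. Each ACGs library was below each DMSO library, and CCNE2 fell by 1.92 (SE 0.21, adjusted p = 2.78e-04). In SCC25 it was at 59.7, 78.0 and 67.7 with ACGs and at 102, 86.4 and 89.4 with DMSO. The groups did not overlap there either, and CCNE2 fell by 0.44 (SE 0.16, adjusted p = 0.0250). That smaller call was lost with DESeq2 (adjusted p = 0.0566) and without ACGs replicate 1 (0.0772), DMSO replicate 1 (0.109) or DMSO replicate 3 (0.0510). The response differed between the lines by -1.48 (SE 0.27, adjusted p = 5.10e-04). INTS8 and NDUFAF6 on the opposite strand overlap CCNE2 by 1977 and 912 bases, and in SCC15 their means with DMSO and with ACGs were 624 and 469 for INTS8 and 150 and 185 for NDUFAF6.

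CCNE1 (chromosome 19: 29811898 to 29824308, plus strand) was at 508, 507 and 638 with ACGs and at 675, 629 and 569 with DMSO in SCC15. In SCC25 it was at 167, 172 and 182 with ACGs and at 157, 169 and 169 with DMSO. The groups overlapped in both lines, and the differences of -0.18 (SE 0.12, adjusted p = 0.229) and 0.070 (SE 0.10, adjusted p = 0.549) did not pass. In SCC15 CCNE1 was lower past the threshold without ACGs replicate 3 (-0.29, adjusted p = 0.00149) and with equal totals (-0.68, adjusted p = 7.29e-04), while in SCC25 equal totals gave -0.14 (adjusted p = 0.242). The difference of its responses was -0.25 (SE 0.15, adjusted p = 0.179), and it passed without ACGs replicate 3 of SCC15 (-0.36, adjusted p = 0.0181) and with equal totals (-0.54, adjusted p = 0.00271). The log2 ratio of CCNE2 to CCNE1 was -3.52 ± 0.42 (SD, n = 3) with ACGs and -1.79 ± 0.041 with DMSO in SCC15, a 3.33-fold difference, and -1.33 ± 0.18 and -0.83 ± 0.19 in SCC25, a 1.42-fold difference. Every ACGs library was below every DMSO library in both lines, with an exact permutation p = 0.1 in each, the smallest possible.

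CDK2, the kinase that cyclins E and A activate (chromosome 12: 55966769 to 55972784, plus strand) was at 1421, 1472 and 1792 with ACGs and at 1752, 1817 and 1831 with DMSO in SCC15. It was at 1940, 1960 and 1719 with ACGs and at 1543, 1633 and 1502 with DMSO in SCC25. The SCC15 groups overlapped through ACGs replicate 3 alone, and the difference was -0.21 (SE 0.11, adjusted p = 0.118). Without that library it was -0.32 (adjusted p = 8.18e-06), and it also passed with TMM factors (-0.28, adjusted p = 0.0280), with edgeR (adjusted p = 0.0308) and with equal totals (-0.71, adjusted p = 1.85e-04). In SCC25 CDK2 rose by 0.26 (SE 0.059, adjusted p = 0.00134), a call lost with equal totals (0.055, adjusted p = 0.389). The responses differed by -0.47 (SE 0.13, adjusted p = 0.00682). The whole of CDK2 lies within the span of PMEL on the opposite strand, whose mean was 32.9 and 43.0 in SCC15 and 114 and 55.6 in SCC25 with DMSO and ACGs.

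CCNA2 (chromosome 4: 121816444 to 121823933, minus strand) was the gene called higher in both lines. In SCC25 it was at 2785, 2828 and 2502 with ACGs and at 1221, 1240 and 1298 with DMSO, and in SCC15 at 1473, 1498 and 1762 and at 1236, 1290 and 1232. No ACGs library lay within the DMSO range of its line. The rise was 1.11 (SE 0.055, adjusted p = 1.64e-09) in SCC25, and 0.33 (SE 0.096, adjusted p = 0.0196) in SCC15, where equal library totals turned it to -0.17 (adjusted p = 0.0752) and leaving out any 1 of the DMSO replicates 1, 2 and 3 ended the call (adjusted p = 0.0746, 0.0558 and 0.0790). The response was lower in SCC15 than in SCC25 by -0.78 (SE 0.11, adjusted p = 9.15e-05). EXOSC9 on the opposite strand overlaps 578 bases of CCNA2, and its mean with DMSO and ACGs was 716 and 1084 in SCC15 and 824 and 908 in SCC25.

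CDC25A (chromosome 3: 48157146 to 48188402, minus strand), the phosphatase that removes inhibitory phosphate from CDK2 and its relatives, was the gene with a fall beyond 1 on the log2 scale in both lines. It was at 219, 227 and 230 with ACGs and at 629, 661 and 601 with DMSO in SCC15, and at 81.3, 116 and 67.7 and at 206, 199 and 221 in SCC25. Its groups were far apart in both lines. CDC25A fell by 1.48 (SE 0.091, adjusted p = 2.72e-05) in SCC15 and by 1.26 (SE 0.17, adjusted p = 2.26e-05) in SCC25. It kept its call in all 16 alternatives run in each line, as CCND1 did with its smaller falls. The difference between the lines was -0.21 (SE 0.22, adjusted p = 0.436), which does not show that the responses were equal. The promoter of CDC25A is shown because its transcript fell in both lines. It held TTTGGCGC at positions -44 to -37 from the start, where 0.652% of all promoters held that string and 2.74% held any of the 3 E2F strings. No other promoter of the 9 held an E2F string, and none held TGATGCAA, which 0.866% of all promoters held. The 250 bases upstream of CDC25A (chr3:48188418-48188667, minus strand), with TTTGGCGC in capitals, read 5′ to 3′:
CDC25A: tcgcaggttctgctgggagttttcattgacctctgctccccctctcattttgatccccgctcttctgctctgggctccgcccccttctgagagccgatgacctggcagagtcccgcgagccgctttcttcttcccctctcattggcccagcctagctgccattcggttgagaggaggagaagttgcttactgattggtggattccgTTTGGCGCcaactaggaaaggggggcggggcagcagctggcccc

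**Figure D3:**
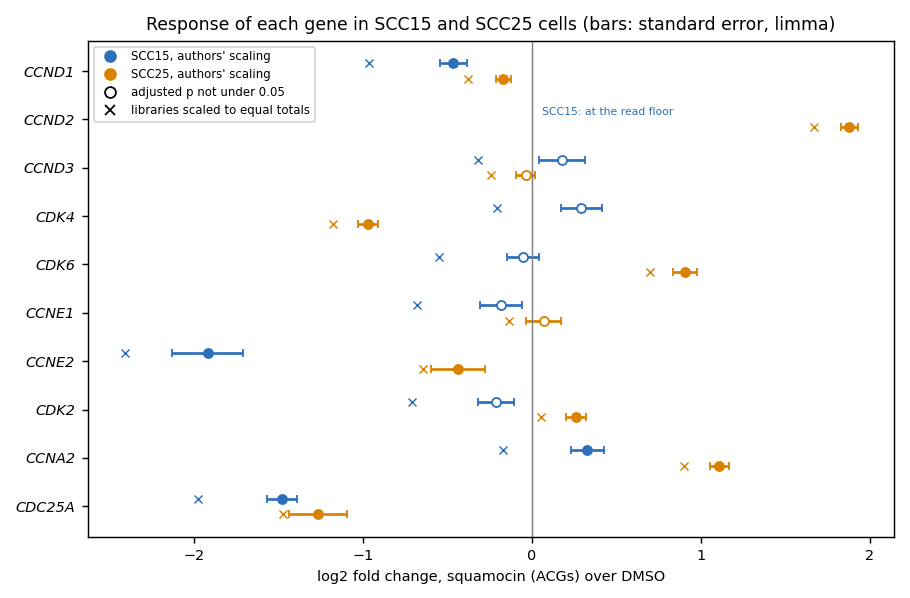
log2 fold change of ACGs over DMSO (horizontal axis) of each gene in SCC15 and SCC25 with the authors' scaling (circles, bars are limma standard errors, open where adjusted p was not under 0.05) and with libraries scaled to equal totals (crosses). CDC25A, CCNE2 and CCND1 lie below 0 in both lines under both scalings, while CCNA2, CCND3 and CDK4 of SCC15 and CCNE1 of SCC25 change side with equal totals.

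Across the 9 genes tested in both lines, 3 (CDC25A, CCNE2 and CCND1) were called lower in both, 1 (CCNA2) was higher in both, 2 (CDK2 and CDK6) were called only in SCC25 as higher, 1 (CDK4) only in SCC25 as lower, and 2 (CCND3 and CCNE1) in neither. The test of the difference called 6 of the 9, where 52.2% of all genes were called. Of the 6, 1 was higher and 5 were lower in SCC15 than in SCC25, and 26.1% and 26% of the 14454 genes tested in both lines were called in those directions. The median difference of the 9 genes was -0.29, beside 0.012 over all genes. With equal library totals the median over all genes moved to -0.27. The 9 genes moved down as well, and CCND1, the gene at their median, went from -0.29 to -0.58. Within each line 5 of the 9 genes in SCC15 and 8 of the 10 in SCC25 had groups that did not overlap, where 70.6% and 79% of all genes tested did not.

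Per kb of exon, CCND1 had the highest level of the 10 genes in SCC15 cells with DMSO, at 885 ± 3.84 normalized counts per kb (SD, n = 3). CDK4 (554 ± 2.14) came next, then CDK2 (463 ± 10.8) and CCNA2 (456 ± 11.7), whose libraries overlapped. CCND3 (390 ± 13.4), CCNE1 (254 ± 21.5), CDC25A (152 ± 7.29), CDK6 (73.2 ± 3.58) and CCNE2 (40.9 ± 2.72) followed without overlap. With ACGs, CDK4 (684 ± 113), CCND1 (642 ± 36.8) and CCNA2 (574 ± 58.2) of SCC15 were not separated from their neighbour in the order. CCND3 (446 ± 83.1) and CDK2 (402 ± 51.7) overlapped as well, and CCNE1 (224 ± 30.7), CDK6 (70.7 ± 5.62), CDC25A (54.4 ± 1.37) and CCNE2 (10.9 ± 2.92) followed. In SCC25 with DMSO, CCND1 stood at 2147 ± 35.3, followed by CDK4 (620 ± 9.70), CCNA2 (456 ± 14.5) and CDK2 (401 ± 17.2), while CDK6 (238 ± 5.08) and CCND2 (237 ± 9.08) overlapped. Below them were CCND3 (147 ± 6.19), CCNE1 (67.1 ± 2.80), CDC25A (50.4 ± 2.76) and CCNE2 (21.1 ± 1.93). With ACGs the order of SCC25 became CCND1 (1911 ± 103), CCNA2 (984 ± 64.4), CCND2 (872 ± 50.3), CDK2 (482 ± 34.5), CDK6 (447 ± 53.7) and CDK4 (317 ± 25.7), of which CDK2 and CDK6 overlapped. CCND3 (143 ± 2.63) and CCNE1 (70.5 ± 3.23) came next, and CDC25A (21.4 ± 6.07) and CCNE2 (15.6 ± 2.08) overlapped at the end. CDK4 thus went from rank 2 to rank 6 of the 10 levels, and CCND2 from rank 6 to rank 3. The order of the genes depends on the unions of exons taken as their lengths.

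The partners of these genes were described from 6 lists, 63 genes in all, of which each was tested in both lines. The counts are read against the share of all genes called, 30.9% higher and 30% lower in SCC15, 38.3% and 38.5% in SCC25, and 26.1% and 26% for the difference. With equal library totals these shares were 14.8% and 50.5% in SCC15, 30.4% and 47.4% in SCC25, and 16.6% and 37.7% for the difference. Without ACGs replicate 3 of SCC15 they were 38.0% and 37.6% in that line, so that more calls were made over all genes too. Equal totals turned the sign of 13 of the 63 genes in SCC15, 7 in SCC25 and 6 in the difference. Of 7 CDK inhibitors, 6 were higher and 1 lower in SCC15 (median log2 fold change 1.26), and all 7 were higher in SCC25 (median 1.49). CDKN1C, which encodes p57, rose by 3.66 (SE 0.22, adjusted p = 2.72e-05) in SCC15 and by 2.47 (SE 0.13, adjusted p = 2.54e-09) in SCC25. CDKN2C, which encodes p18, fell by 0.87 (SE 0.21, adjusted p = 0.00807) in SCC15. CDKN1A, which encodes p21, rose by 2.81 (SE 0.046, adjusted p = 1.13e-13) in SCC25 and by 1.25 (SE 0.097, adjusted p = 6.30e-05) in SCC15. With equal totals 5 of the inhibitors were higher and 2 lower in SCC15, and 6 were higher in SCC25. CDKN1B, which encodes p27 and was singled out after its values were seen, was called higher in SCC15 (0.23, adjusted p = 0.0396) and lower with equal totals (-0.27, adjusted p = 0.0178).

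Of 13 RB and E2F factors, 2 were higher and 8 lower in SCC15 (median -0.63), and 4 were higher and 6 lower in SCC25 (median -0.13). With equal totals these became 2 and 9 in SCC15, and 2 and 8 in SCC25. E2F2, an activating E2F factor, fell by 2.44 (SE 0.14, adjusted p = 1.99e-05) in SCC15. E2F1, the best known activator, fell by 1.66 (SE 0.070, adjusted p = 4.07e-10) in SCC25, and E2F7, a repressing member, rose there by 1.83 (SE 0.052, adjusted p = 1.25e-11). In SCC15 neither passed, at 0.16 (SE 0.13, adjusted p = 0.311) for E2F1 and 0.17 (SE 0.099, adjusted p = 0.161) for E2F7. Equal totals turned both there, E2F1 to -0.34 (adjusted p = 0.0105) and E2F7 to -0.32 (adjusted p = 0.0868). Of 15 genes that E2F drives for S phase, 1 was higher and 8 lower in SCC15 (median -0.35), and 14 were lower and none higher in SCC25 (median -1.13). With equal totals 14 were lower in SCC15 as well, and 1 was higher. MCM2, a subunit of the replicative helicase, fell by 3.56 (SE 0.072, adjusted p = 6.53e-13) in SCC25 and by 0.93 (SE 0.15, adjusted p = 0.00133) in SCC15. CDT1, which loads that helicase, rose by 0.76 (SE 0.13, adjusted p = 0.00164) in SCC15 and fell by 1.00 (SE 0.057, adjusted p = 6.24e-09) in SCC25. The responses of 12 of these 15 genes were higher in SCC15 than in SCC25 by the test of the difference (median 1.18), and none was lower. With equal totals 10 were higher and 2 lower. Without ACGs replicate 3 of SCC15, 2 of the S phase genes were higher and 11 lower in that line, and 4 RB and E2F factors were higher and 8 lower.

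Of 9 CDK activators and inhibitory kinases, 5 were higher and 1 lower in SCC15 (median 0.48) and 8 were higher and 1 lower in SCC25 (median 0.80). With equal totals the SCC15 counts were 3 and 3 and the median there was -0.019, and SCC25 had 7 and 1. CKS1B, a small CDK-binding adaptor, rose by 1.42 (SE 0.22, adjusted p = 0.00121) in SCC15. CDC25C, the mitotic relative of CDC25A, fell by 0.60 (SE 0.15, adjusted p = 0.0115) in SCC15 and rose by 0.62 (SE 0.10, adjusted p = 1.48e-04) in SCC25. CKS2 rose by 1.68 (SE 0.060, adjusted p = 8.64e-11) and PKMYT1, a kinase that inhibits CDK1, fell by 0.80 (SE 0.062, adjusted p = 1.05e-07) in SCC25. Of 11 subunits and receptors of the ubiquitin ligases that act on G1-S cyclins and CDC25A, 5 were higher and 5 lower in SCC15 (median -0.17), and 5 were higher and 3 lower in SCC25 (median 0.059). With equal totals these became 2 and 6 in SCC15, and 3 and 6 in SCC25, where the median turned to -0.15. SKP2, the receptor for p27, fell by 0.99 (SE 0.087, adjusted p = 1.05e-04) in SCC15 and by 0.42 (SE 0.078, adjusted p = 3.11e-04) in SCC25. The ligase subunit RBX1 rose by 1.09 (SE 0.23, adjusted p = 0.00466) in SCC15. In SCC25 SKP1, a subunit of the same ligase, rose by 1.37 (SE 0.056, adjusted p = 2.90e-10) and its scaffold CUL1 fell by 0.56 (SE 0.048, adjusted p = 2.90e-07).

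Of 8 cyclins and partners of the G2-M step, 3 were higher and 1 lower in SCC15 (median 0.12), which with equal totals became none higher and 5 lower (median -0.38), near the share over all genes, and without ACGs replicate 3 became 3 and 2. In SCC25, 6 were higher and none lower (median 0.70), and 5 and 1 with equal totals. The checkpoint kinase BUB1 rose by 1.33 (SE 0.044, adjusted p = 4.97e-11) in SCC25 and by 0.59 (SE 0.077, adjusted p = 5.65e-04) in SCC15, where equal totals gave 0.093 (adjusted p = 0.419). CCNF, an F-box cyclin, fell by 1.02 (SE 0.10, adjusted p = 1.90e-04) in SCC15. Responses of 7 of the 8 were lower in SCC15 than in SCC25 by the test of the difference (median -0.62). That direction was also called for CCNE2, CDK6, CCNA2, CDK2 and CCND1, while CDK4 was called the other way.

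Genes with the most similar pattern were sought for CCND1, CCNA2, CDK2 and CDC25A, as the Pearson correlation over the 12 libraries of the log2 level less the DMSO mean of the same line, among 9698 protein-coding genes. The libraries share treatment, line and depth, so these values are a description. For CCNA2 they were NUF2, a kinetochore subunit (r = 0.998), BLOC1S2 (0.997) and PLS3 (0.996). For CDC25A they were HACD3 (0.994), TCF19 (0.993) and ZNF641 (0.991). CCND1 was closest to BBS10 (0.990), CPT2 (0.988) and ALG6 (0.986), and CDK2 to MRPL35 (0.986), SLC16A1 (0.981) and UBXN2A (0.979).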

How the data were processed

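Total RNA was sequenced from 12 libraries of SCC15 and SCC25 cells. The study's methods give HISAT2 2.0.5, GRCh38 and featureCounts 1.5.0-p3. The deposited tables, 1 per cell line, hold a signal per gene and library: gene counts that the authors divided by a size factor per library. The SCC25 columns are named as FPKM in the deposited table, but their values, like those of SCC15, were whole multiples of 1 step per library whatever the gene's length (100% of values, within 0.05 of a read), and were read as scaled counts. The authors' own log2 fold changes and p-values in the deposited tables were not used. Members, lists and tests were chosen with earlier results of these data known. Columns were matched to samples by cell line, treatment and number.

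Genes with a mean of at least 10 were tested with limma 3.58.1 in R 4.3.3 on log2(normalized count + 1), trend on, two-sided, Benjamini-Hochberg over all genes tested, threshold 0.05. The difference between lines used 1 fit over 12 libraries. The study's own design was DESeq2. On recovered reads, edgeR 4.0.16 called 4712 genes higher and 5168 lower in SCC15, and 6298 and 6506 in SCC25. DESeq2 1.42.0, other pseudocounts, filters, TMM and equal library totals, the replicate block and each library left out were alternatives. The code was tested on simulated data. Ratios within a library had exact permutation tests. Lengths were unions of GENCODE exons. The 10 members were named, and for each list the largest called rise and fall in each line among genes with a mean of at least 100. Values in the other line were given for CDKN1A, CDKN1C, E2F1, E2F2, E2F7, MCM2, CDT1, CDC25C, SKP2 and BUB1, after the data were seen. Any other gene named for 1 line may have been called in the other as well. List counts without ACGs replicate 3 of SCC15 were added after the data were seen. Counting error falls with reads, and intervals and floors cover counting error only. The labels give no batch or date.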

Additional observations from a re-analysis of the deposited data

Results flagged for a closer look

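The following genes responded unequally in SCC15 and SCC25 by the limma test of the difference (log2 response in SCC15 minus that in SCC25, adjusted over 14454 genes, of which 52.2% were called). CDK4 differed by 1.26 (SE 0.14, adjusted p = 1.13e-05), with the response in SCC15 the higher. CCNE2 differed by -1.48 (SE 0.27, adjusted p = 5.10e-04). CDK6 differed by -0.96 (SE 0.13, adjusted p = 5.04e-05). CCNA2 differed by -0.78 (SE 0.11, adjusted p = 9.15e-05). CDK2 differed by -0.47 (SE 0.13, adjusted p = 0.00682). CCND1 differed by -0.29 (SE 0.096, adjusted p = 0.0201), a call lost without ACGs replicate 1 of SCC25 (adjusted p = 0.0545).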

How the results depend on the processing

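Of the results for single genes, 1514 kept direction and call across the alternatives, 23 gained a call, 31 lost one and 14 turned sign. With equal library totals, the median of all genes moved as given above, and no gene of the 10 was higher in SCC15 (count 0) and 7 were lower. Over all genes this gave 2357 higher and 8033 lower in SCC15, so that 22.7% of calls were higher where the authors' scaling gave 50.8%. The share was 39.1% against 49.9% in SCC25, and 30.6% against 50.1% for the difference between lines, where 2400 genes were higher in SCC15. Among the genes named by rule, signs turned with equal totals in SCC15 for CCND3 (-0.32), CCNA2 (-0.17), CDK4 (-0.21), E2F1 (-0.34), E2F7 (-0.32) and PKMYT1 (-0.31), in SCC25 for CCNE1 (-0.14), and in the difference for CCND3 (-0.075), CKS1B (-0.069) and RBX1 (-0.098). They also turned without ACGs replicate 3 of SCC15 for CDK6 in that line (-0.10 to 0.010 over the libraries left out) and for CKS1B (-0.063 to 0.36) and RBX1 (-0.10 to 0.36) in the difference, and without ACGs replicate 1 of SCC25 for CCNF in that line (-0.087 to 0.028). The cause was not tested.

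Requiring an absolute log2 difference above 1 left 0 of the 10 genes higher and 2 lower in SCC15, 2 higher and 1 lower in SCC25, and 1 higher and 1 lower in the difference. Over all genes it left 1998 higher and 2320 lower in SCC15, 2293 and 2813 in SCC25, and 1585 and 1527 in the difference. Leaving out each library in turn gave 0 to 2 of the genes higher and 3 to 5 lower in SCC15, and 1 to 2 higher and 4 to 6 lower in the difference. Over all genes the ranges were 3930 to 6086 and 3612 to 6022 in SCC15, and 3375 to 4705 and 3401 to 4842 in the difference. SCC15 had 2 higher without ACGs replicate 1 or 3, 0 without any 1 DMSO library and 5 lower without ACGs replicate 3, and the difference had 2 higher without ACGs replicate 1 of SCC15. Same-numbered libraries did not deviate together, with correlations of -0.051 to 0.0032 in SCC15 and -0.015 to 0.0078 in SCC25. The replicate block gave 4665 genes higher and 4451 lower in SCC15, 6294 and 6317 in SCC25, and 3564 and 3525 in the difference, and among the 10 genes ended only the difference for CCND1 (-0.29, adjusted p = 0.0618). CCND2 in SCC15 had 2 reads or fewer in each library, out of 17656864 to 19792137 reads on genes, so no fold was computed there.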
